A study of Mus musculus with 8 samples.

Results

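The genes described here are those of glycolysis and of the response to low oxygen, given as a list of 39 symbols that covers glucose and lactate transporters, the glycolytic enzymes, the kinases and phosphatases that tune them, the oxygen sensors and some genes that low oxygen is known to switch on. The rule names genes by their function and uses no measured value, although the list was drawn up with earlier results of these data known. A gene was measured where at least 1 row of the array's value table was annotated to that symbol alone, and where a gene had several such rows the one with the highest mean over the 8 arrays was taken. By this rule 36 of the 39 genes were measured, among 19938 genes in all. Gpi1, Eno1 and Gapdh had no row of their own and are not analysed here.

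The study asked what the loss of Cbfb does to gene expression in mouse bone marrow progenitors. CBFβ, the protein made from Cbfb, is the partner that lets RUNX transcription factors bind DNA firmly. The 4 groups were KO GMP, Het GMP, KO LSK and Het LSK, with 2 arrays labelled as biological replicates in each. KO cells carried Vav1-iCre with 2 floxed Cbfb alleles, Cbfb(F/F), and Het cells carried the same Vav1-iCre with 1 floxed allele, Cbfb(F/+). The Cre recombinase is driven by Vav1 regulatory elements, which are active across the blood lineage, so both genotypes carried Cre and the Het cells too had an allele open to deletion. No wild-type group was among the arrays. Mice were 7 weeks old, on a C57BL6 N12 backcrossed background, and LSK and GMP were sorted from the same 2 KO and 2 Het animals. LSK are lineage-negative, Sca-1-positive, Kit-positive cells, which include the blood stem cells and multipotent progenitors. GMP are the granulocyte-macrophage progenitors that give rise to neutrophils and monocytes.

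Glycolysis splits glucose into pyruvate in the cytosol. Pyruvate is then either reduced to lactate by lactate dehydrogenase or burned in mitochondria, an entry that the pyruvate dehydrogenase kinases hold back. When oxygen is low, the prolyl hydroxylases encoded by the Egln genes no longer mark the HIF-α proteins for destruction, and HIF-α with ARNT turns on many glycolytic genes. HIF-1α and its targets are known from mouse work to keep quiescent blood stem cells on a glycolytic metabolism, and Egln3, Pdk1, Vegfa, Bnip3 and Ak4 are widely used readouts of this response.

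Expression was measured on Affymetrix Mouse Gene arrays, and all values below are log2 expression as deposited, so that a difference of 1 is a doubling or a halving. The array medians lay between 4.92 and 5.09, and arrays of 1 group correlated at 0.99 to 0.995, against 0.955 to 0.983 between groups. Of the 36 genes, 32 lay above the median row (5.02). The Cbfb row read 6.48 and 6.96 in KO GMP against 7.53 and 7.65 in Het GMP, and 6.93 and 6.98 in KO LSK against 7.56 and 7.55 in Het LSK. The difference was -0.86 in GMP (adjusted p = 0.013) and -0.60 in LSK (adjusted p = 0.0557), and no source used here says whether the probes lie in the deleted part of the gene. Elane, a granule enzyme of GMP, averaged 11.73 in KO GMP and 11.94 in Het GMP, against 7.12 in KO LSK and 7.25 in Het LSK. Kit and Cd34 were high in every group, and Ly6a, which encodes Sca-1, had no row of its own. Other markers of the sorted cells moved with the genotype. Slamf1, a stem cell marker, was higher in KO GMP by 3.42 (adjusted p = 7.78e-05) and in KO LSK by 2.40 (adjusted p = 0.000399), and Flt3, a marker of multipotent progenitors, differed by -0.90 in GMP (adjusted p = 0.122) and -3.41 in LSK (adjusted p = 0.000146). Of the 7 GMP markers, 1 was higher in KO GMP (Fcgr2b, 0.80), while in KO LSK 2 were higher (Fcgr2b, 2.44, and Fcgr3, 1.07) and 1 lower (Mpo, -1.19). The part of the make-up of the sorted populations in the results below was not tested.

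Loss of Cbfb moved a minority of the 36 genes, and most of those that moved went down. In GMP, 5 genes fell and 2 rose in KO relative to Het (19.4%), where 6.02% of all 21789 rows passed the same test, 2.57% lower and 3.45% higher. In LSK, 9 fell and 1 rose (27.8%), where 7.73% of all rows passed, 4.71% lower and 3.02% higher. The test was limma's moderated test with Benjamini-Hochberg adjustment over all rows, and a gene is said to rise or fall where its adjusted p was under 0.05. Ak4, Egln3, Tpi1 and Pdk1 fell in both cell types and Pfkfb2 rose in both. Another 2 genes passed in GMP alone (Pgam1 and Slc2a3), 5 passed in LSK alone (Hk3, Ldhb, Pfkfb4, Egln1 and Vegfa), and 24 passed in neither.

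Over all 36 genes the median difference between KO and Het was -0.18 in GMP and -0.17 in LSK, against -0.02 and 0.01 over all rows. This median depended on the scaling. With quantile normalization repeated it was -0.11 in GMP and -0.09 in LSK, while the median of all rows moved by 0 in both. With array medians subtracted it was -0.23 in GMP and -0.08 in LSK, while the median of all rows moved by -0.05 and 0.09. The median size of the difference, whatever its direction, was 0.34 in GMP and 0.20 in LSK, against 0.15 and 0.16 over all rows. The 2 arrays of KO did not overlap the 2 of Het for 30 genes in GMP, 20 of them lower and 10 higher in KO, where 51.3% of all rows did not overlap, 27.9% lower and 23.4% higher. In LSK the same held for 20 genes, 17 of them lower and 3 higher, where the share over all rows was 45.5%, with 22.7% lower and 22.8% higher. With 2 arrays against 2, an exact permutation test of a single gene cannot go below p = 0.333, so each call rests on the spread shared over rows and groups. RNA came from whole sorted populations, in which fewer cells of a type and less RNA per cell cannot be told apart.

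Ak4 in both cell types, Egln3 and Ldhb in LSK, and Pgam1 in GMP kept their calls in every alternative fit that used the same threshold on p. Fitted on the 2 LSK groups alone, Tpi1, Pdk1, Pfkfb2, Pfkfb4, Egln1 and Vegfa did not pass there (adjusted p of 0.0507 to 0.146). With all rows of the table tested, the LSK calls of Pdk1, Pfkfb2, Pfkfb4, Egln1 and Vegfa (0.0512 to 0.0805) and the GMP calls of Tpi1 and Slc2a3 (0.0581 and 0.075) were lost. Other scalings ended the LSK calls of Pdk1 (0.0868) and Egln1 (0.0619) and the GMP call of Tpi1 (0.0608), and a replicate block ended that of Pdk1 in LSK (0.0532).

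Markers of other blood cells moved with the genotype as well. All 7 measured megakaryocyte and platelet markers were called higher in KO GMP than in Het GMP, with a mean log2 level over the list of 8.87 to 9.16 against 5.30 to 5.77. In LSK, 4 of these 7 were higher in KO and 1 lower, with list means of 8.05 to 8.16 in KO LSK and 6.62 to 6.64 in Het LSK. Of 10 monocyte and macrophage markers, 8 were lower in KO GMP (5.36 to 5.99 in KO GMP, 7.37 to 7.41 in Het GMP) and 4 were lower in KO LSK (4.96 to 5.04 in KO LSK, 5.68 to 5.95 in Het LSK). Of 7 B cell markers, 6 were lower in KO LSK (4.48 to 4.71 in KO LSK, 6.63 to 7.10 in Het LSK). Of 8 T and NK cell markers, 1 was lower in KO GMP and 3 in KO LSK, and of 9 mature neutrophil markers 2 were higher in KO in each cell type. Of 8 mast cell and basophil markers, 2 were higher and 3 lower in KO GMP, and 2 higher and 1 lower in KO LSK, among them Cpa3, 3.92 higher in KO LSK, and Ms4a2, with a difference of -1.90 in GMP. Of 9 endothelial and stromal markers, 2 were higher and 1 lower in KO GMP, and 1 higher and 3 lower in KO LSK. Of 5 erythroid markers, 1 was higher in KO GMP and 1 lower in KO LSK. Log2 array values have no true zero, so no marker can be read as absent. The part of these cell types in the differences of the glycolysis and hypoxia genes was not tested.

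**Figure D1:**
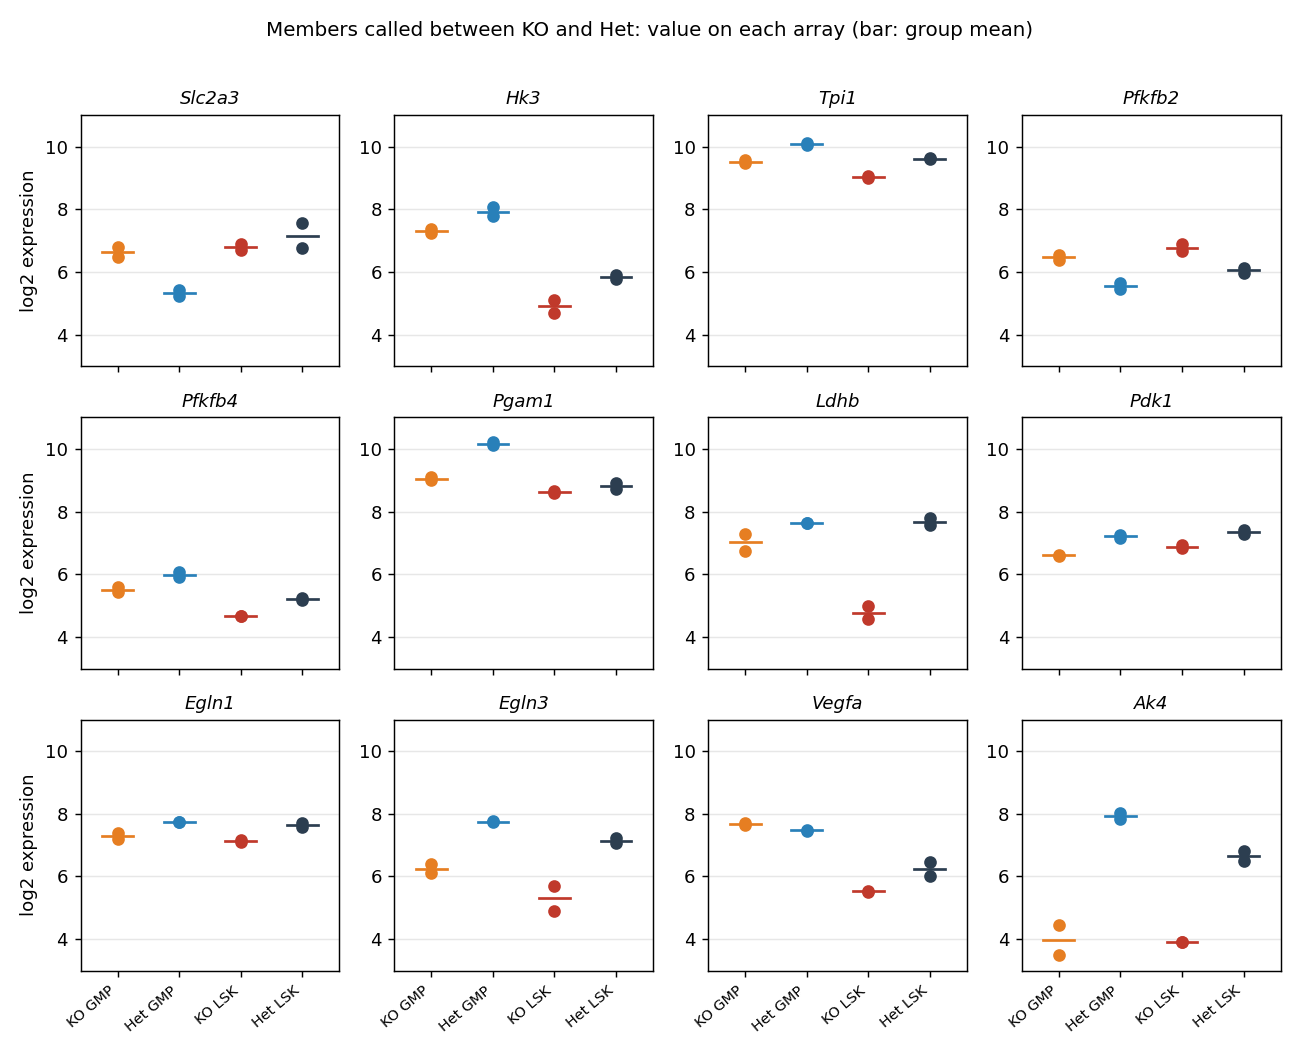
Log2 expression (y axis) of the 12 genes called between KO and Het in at least 1 cell type, for each of the 8 arrays (points) with the mean of each group (bar), in the order KO GMP, Het GMP, KO LSK and Het LSK. Ak4 lies at 3.50 to 4.46 on the 4 KO arrays and at 6.49 to 8.02 on the 4 Het arrays, and Pfkfb2 is the only one of the 12 whose KO arrays lie above its Het arrays in both cell types.

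Among the genes that low oxygen is known to induce, Ak4 showed the largest change of the 36 in GMP and Egln3 fell in both cell types. Ak4 is a mitochondrial adenylate kinase and a described HIF-1 target. It read 4.46 and 3.50 in KO GMP against 8.02 and 7.84 in Het GMP, and 3.90 and 3.90 in KO LSK against 6.49 and 6.80 in Het LSK. Every KO array lay below every Het array, and both KO groups sat below the median row. The difference was -3.95 ± 0.27 (SE) in GMP, a 15.5-fold lower level in KO (adjusted p = 6.36e-05), and only 2 of the 21789 rows fell further. In LSK it was -2.75 ± 0.27, or 6.72-fold lower (adjusted p = 0.000322). A second row for Ak4 gave -2.80 in GMP (adjusted p = 0.00134) and -2.22 in LSK (adjusted p = 0.00413). Since RMA values flatten near the background of the array, these folds may understate the change, and the extent was not tested.

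Egln3 encodes PHD3, the oxygen sensor most strongly induced by HIF itself in a feedback loop. It read 6.39 and 6.11 in KO GMP against 7.76 and 7.72 in Het GMP, and 5.69 and 4.91 in KO LSK against 7.22 and 7.06 in Het LSK. The KO arrays lay below the Het arrays in both cell types, and the 2 KO LSK arrays were farther apart than those of any other group. The fall was 2.81-fold in GMP (difference -1.49 ± 0.23, adjusted p = 0.00483) and 3.57-fold in LSK (-1.84 ± 0.23, adjusted p = 0.00133). Without replicate 2 of KO GMP the GMP call was narrowly lost (adjusted p = 0.0505).

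Egln1 encodes PHD2, the main oxygen sensor that sets HIF-α levels. It read 7.37 and 7.20 in KO GMP against 7.75 and 7.75 in Het GMP, and 7.16 and 7.10 in KO LSK against 7.70 and 7.59 in Het LSK. Again no KO array reached a Het array of the same cell type. Only the LSK difference passed, at -0.52 ± 0.12 (adjusted p = 0.0295), while that in GMP was of like size at -0.47 (adjusted p = 0.0547). With array medians subtracted or only rows above the median level tested, the GMP difference passed too (adjusted p = 0.0342 and 0.0215). It also passed with an intensity trend in the prior variance (0.0305). The LSK call was lost without any 1 of the 4 LSK arrays or either Het GMP array (adjusted p of 0.0588 to 0.156).

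The transcripts of the HIF-α subunits themselves did not pass in any comparison. Hif1a, the oxygen-regulated subunit of HIF-1, read 7.16 and 6.97 in KO GMP against 7.19 and 6.84 in Het GMP, and 7.07 and 7.14 in KO LSK against 6.66 and 6.75 in Het LSK. The GMP arrays overlapped, and in LSK both KO arrays lay above both Het arrays (0.40 ± 0.15, adjusted p = 0.165). Epas1, which encodes HIF-2α, read 3.71 and 3.48 in KO GMP against 3.69 and 3.61 in Het GMP, and 3.65 and 3.68 in KO LSK against 3.77 and 3.45 in Het LSK. It was below the median row on every array, and its groups overlapped in both cell types. HIF-α is controlled mainly through protein stability, which arrays do not measure.

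Vegfa, the blood vessel growth factor, differed by cell type more than by genotype. It read 7.69 and 7.65 in KO GMP against 7.45 and 7.49 in Het GMP, and 5.50 and 5.55 in KO LSK against 6.47 and 6.02 in Het LSK. It fell by 0.72 ± 0.15 in KO LSK (adjusted p = 0.0212) and differed by 0.20 in GMP (adjusted p = 0.591). The difference between these effects did not pass (0.92 ± 0.22, adjusted p = 0.0727), but it passed with a random block by replicate number within genotype (adjusted p = 0.0466), with only rows above the median level tested (0.0483) and without replicate 2 of Het LSK (0.0297). The LSK call was lost without replicate 1 of Het LSK (adjusted p = 0.111) and without replicate 1 or 2 of KO LSK (0.0676 and 0.0581).

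The other hypoxia-induced genes did not pass between KO and Het. They are Bnip3 and Bnip3l, which mark mitochondria for removal, Ddit4, an inhibitor of mTORC1 signalling, and Ankrd37, an ankyrin repeat gene. Bnip3 differed by -0.17 in GMP and -0.08 in LSK, and Bnip3l by 0.11 and 0.01. Ddit4 differed by 0.66 in GMP (adjusted p = 0.107) and -0.12 in LSK, and Ankrd37 by 0.15 and -0.09.

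In the upper part of glycolysis, 2 of the 9 measured enzymes passed. Hk3 is the hexokinase typical of myeloid cells, and hexokinases make the first committed form of glucose in the cell. It read 7.39 and 7.26 in KO GMP against 7.78 and 8.07 in Het GMP, and 5.13 and 4.70 in KO LSK against 5.77 and 5.92 in Het LSK. It lay lower in KO in both cell types without overlap, passing in LSK (-0.93 ± 0.17, adjusted p = 0.0101) and not in GMP (-0.60, adjusted p = 0.0842). Hk3 did pass in GMP with array medians subtracted (adjusted p = 0.0473) and with only rows above the median level tested (0.048). Without replicate 2 of Het LSK the LSK call was lost (adjusted p = 0.0763).

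Tpi1, the triose phosphate isomerase that lets both products of the aldolase step enter the lower pathway, fell by a similar amount in both cell types. It read 9.57 and 9.47 in KO GMP against 10.13 and 10.04 in Het GMP, and 9.05 and 8.99 in KO LSK against 9.64 and 9.60 in Het LSK. Replicates differed by at most 0.10, less than the gap between genotypes. The difference was -0.56 ± 0.11 in GMP (adjusted p = 0.0202) and -0.60 ± 0.11 in LSK (adjusted p = 0.0116). The GMP call was lost without any 1 of the 4 GMP arrays (adjusted p of 0.0804 to 0.166), and the LSK call without replicate 1 or 2 of Het LSK (0.0723 and 0.0581).

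The other 7 enzymes of the upper part did not pass between KO and Het. The phosphofructokinases Pfkl, Pfkm and Pfkp, which catalyse the step that commits sugar to glycolysis, differed by -0.21, 0.23 and -0.35 in GMP and by -0.27, -0.16 and -0.11 in LSK. The aldolases cut the 6-carbon sugar. Aldoa differed by -0.23 in GMP and 0.20 in LSK, and Aldoc by 0.70 (adjusted p = 0.191) and -0.66 (adjusted p = 0.193) with SEs of 0.26. Without replicate 1 of Het GMP, Aldoc passed in GMP (1.16, adjusted p = 0.0146), and without replicate 1 or 2 of Het GMP it passed in LSK (adjusted p = 0.039 in each case). With 1 Het GMP array left out, its GMP difference was 1.16 without replicate 1 and 0.24 without replicate 2. Hk2, the inducible hexokinase, differed by -0.43 in GMP and -0.15 in LSK. Hk1, the widely expressed hexokinase, differed by 0.20 in both cell types in the row with the highest mean, yet its second row differed by 0.88 in GMP (adjusted p = 0.00411) and 0.68 in LSK (adjusted p = 0.0129). Hk1 was the 1 gene of 8 with several rows whose rows gave different calls between KO and Het, while the other 7 gave the same call in each row. Among these 7, Pgk1 and Pgam1 each had 2 rows with equal values on every array, whose calls could not differ. Each of these genes also had a further row with other values and the same calls.

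The bifunctional enzymes of the Pfkfb family set the level of fructose 2,6-bisphosphate, the strongest activator of phosphofructokinase, and 2 of the 3 measured moved in opposite directions. Pfkfb2 read 6.40 and 6.54 in KO GMP against 5.48 and 5.67 in Het GMP, and 6.91 and 6.66 in KO LSK against 5.96 and 6.15 in Het LSK. All 4 KO arrays lay above all 4 Het arrays. The rise was 0.90 ± 0.14 in GMP (adjusted p = 0.00571) and 0.73 ± 0.14 in LSK (adjusted p = 0.0134). The GMP call was lost without replicate 2 of KO GMP (adjusted p = 0.0616) or replicate 1 of Het GMP (0.066), and the LSK call without replicate 1 of KO LSK (0.058) or of Het LSK (0.0985).

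Pfkfb4 read 5.60 and 5.43 in KO GMP against 6.07 and 5.91 in Het GMP, and 4.66 and 4.67 in KO LSK against 5.19 and 5.26 in Het LSK. It lay lower in KO without overlap in both cell types, with a difference of -0.47 in GMP (adjusted p = 0.061) and a fall of 0.56 ± 0.12 in LSK (adjusted p = 0.0242). Pfkfb4 passed in GMP with array medians subtracted (adjusted p = 0.0382) and with only rows above the median level tested (0.0255). The LSK call was lost without any 1 of the 4 LSK arrays (adjusted p of 0.0656 to 0.134). Pfkfb3, the form with the highest kinase activity, differed by -0.11 in GMP and -0.13 in LSK.

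In the lower part of the pathway, Pgam1 fell in KO GMP and the other 3 measured enzymes did not pass. Pgam1 is the phosphoglycerate mutase that shifts the phosphate before the enolase step. It read 9.09 and 9.0 in KO GMP against 10.21 and 10.11 in Het GMP, and 8.60 and 8.65 in KO LSK against 8.91 and 8.71 in Het LSK. The fall in GMP was 1.11 ± 0.12 (adjusted p = 0.000764), and the difference in LSK was -0.18 (adjusted p = 0.488). Pgk1, which makes the first ATP of the pathway, differed by -0.14 in GMP and 0.10 in LSK, and Eno2, the neuronal enolase, by 0.13 and -0.32. Pkm, the pyruvate kinase, differed by -0.32 in GMP (adjusted p = 0.178) and -0.19 in LSK. Pkm passed in GMP only with an intensity trend in the prior variance (adjusted p = 0.0458).

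The 2 lactate dehydrogenase subunits behaved differently. Ldhb, the subunit that favours turning lactate back into pyruvate, read 7.30 and 6.74 in KO GMP against 7.65 and 7.63 in Het GMP, and 4.98 and 4.59 in KO LSK against 7.56 and 7.79 in Het LSK. The 2 KO LSK arrays stood apart from the other 6. The fall in LSK was 7.40-fold (-2.89 ± 0.20, adjusted p = 6.16e-05), and the difference in GMP was -0.62 (adjusted p = 0.134). A second row for Ldhb gave -3.46 in LSK (adjusted p = 0.00027) and -0.84 in GMP (adjusted p = 0.221). Ldha, the subunit that favours making lactate and a described HIF-1 target, differed by -0.18 in GMP (adjusted p = 0.547) and 0.09 in LSK (adjusted p = 0.792).

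Of the 4 pyruvate dehydrogenase kinases, which shut the mitochondrial entry of pyruvate, Pdk1 fell in both cell types. It is the kinase most often described as HIF-1-induced. It read 6.62 and 6.59 in KO GMP against 7.25 and 7.17 in Het GMP, and 6.92 and 6.83 in KO LSK against 7.40 and 7.29 in Het LSK. The difference was -0.60 ± 0.11 in GMP (adjusted p = 0.0153) and -0.47 ± 0.11 in LSK (adjusted p = 0.0399). The groups did not overlap, but the LSK call was lost when any 1 of the 8 arrays was left out (adjusted p of 0.0624 to 0.192) and the GMP call without any 1 of the 4 GMP arrays (0.0755 to 0.127). Pdk2 differed by 0.68 in GMP (adjusted p = 0.157) and -0.01 in LSK, Pdk3 by -0.19 and -0.25, and Pdk4 by 0.08 and 0.02.

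Of the 4 transporters, Slc2a3 rose in KO GMP. Slc2a3 encodes GLUT3, a glucose transporter of high affinity. It read 6.47 and 6.81 in KO GMP against 5.25 and 5.42 in Het GMP, and 6.91 and 6.70 in KO LSK against 6.77 and 7.56 in Het LSK. The Het GMP arrays were the lowest of the 8, and the LSK groups overlapped. The rise in GMP was 1.30 ± 0.24 (adjusted p = 0.0129), and it was lost without replicate 2 of KO GMP (adjusted p = 0.111) or replicate 1 or 2 of Het GMP (0.112 and 0.0647). Slc2a1, the basal glucose transporter GLUT1, differed by 0.43 in GMP (adjusted p = 0.22) and 0.14 in LSK. The lactate transporters Slc16a1 and Slc16a3 differed by -0.30 and -0.54 in GMP and by -0.40 and -0.17 in LSK, and neither passed.

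**Figure D2:**
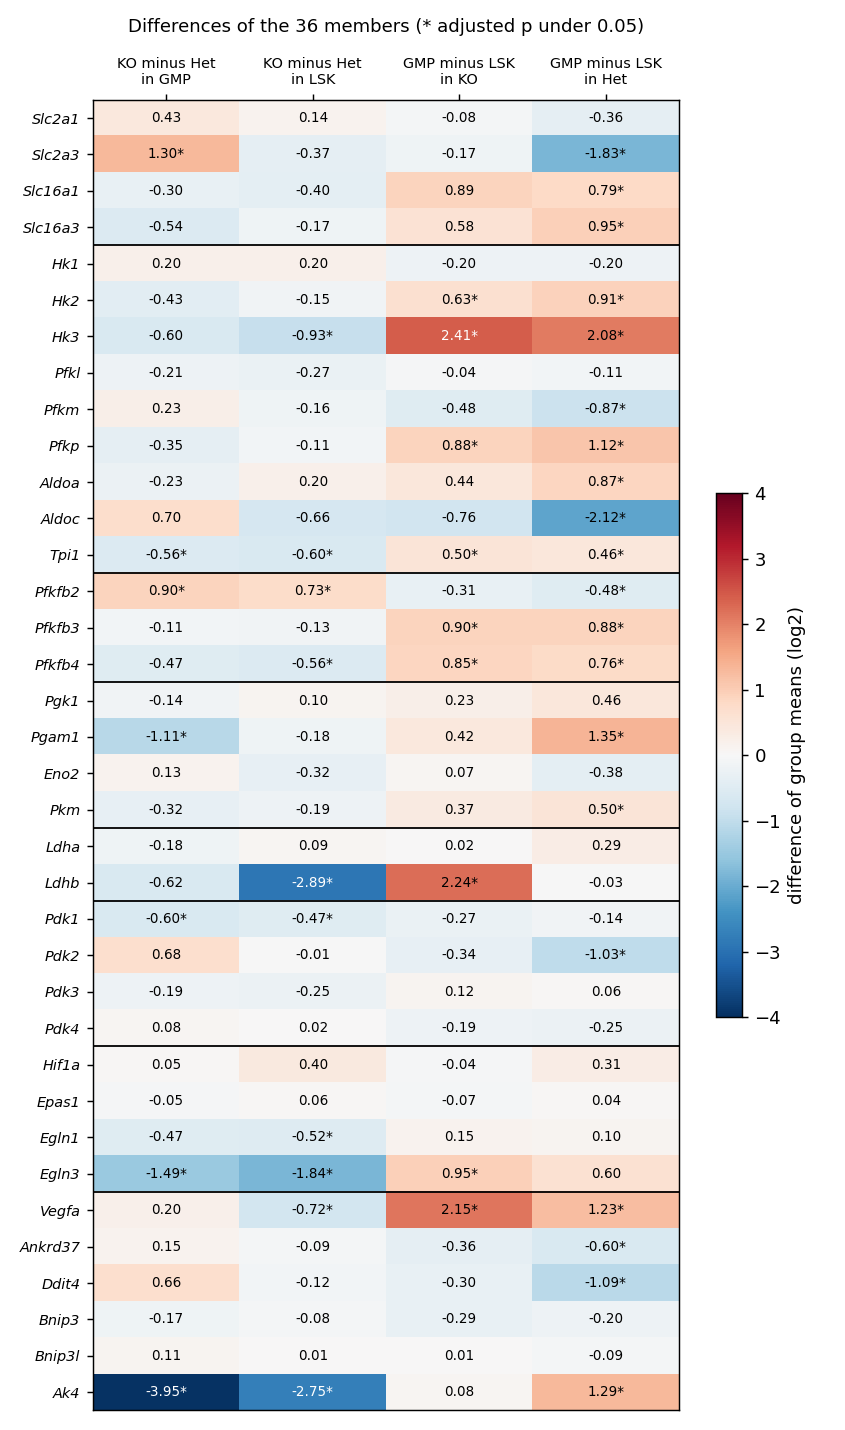
Differences of group means (log2, colour scale from -4 to 4 and printed in each cell) for the 36 genes, from left to right KO minus Het in GMP, KO minus Het in LSK, GMP minus LSK in KO and GMP minus LSK in Het, with an asterisk where the adjusted p was under 0.05. Lines divide the roles, from the transporters at the top (Slc2a1) to the hypoxia-induced genes at the bottom (Ak4), where Ak4 reaches -3.95 and -2.75 in the first 2 columns.

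The effect of losing Cbfb differed between the cell types for 3 of the 36 genes (8.33%), where 2.29% of all rows passed the test of that difference, 1.69% above 0 and 0.601% below. The value is the KO effect in GMP minus the KO effect in LSK. Ldhb stood at 2.27 ± 0.29 (adjusted p = 0.00583), from -0.62 in GMP and -2.89 in LSK. Slc2a3 stood at 1.67 ± 0.34 (adjusted p = 0.0427), from 1.30 and -0.37. Pgam1 stood at -0.93 ± 0.17 (adjusted p = 0.0284), from -1.11 and -0.18. Ldhb kept its call with each of the 8 arrays left out (adjusted p of 0.00571 to 0.0348). Slc2a3 lost it without any array but replicate 1 of Het LSK (0.0508 to 0.167). Pgam1 lost it without replicate 2 of KO LSK (0.0632) or of Het LSK (0.107), and without any 1 of the 4 GMP arrays (0.0799 to 0.129), and another of its rows did not pass (-0.82, adjusted p = 0.0746). With quantile normalization repeated or all rows tested, Pgam1 (0.0521 and 0.0963) and Slc2a3 (0.0863 and 0.177) did not pass, nor did Slc2a3 with array medians subtracted (0.0537).

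Ak4 showed a larger KO difference in GMP than in LSK. The interaction did not pass in its second row (-0.58, adjusted p = 0.711), nor in the row used here, at -1.21 (adjusted p = 0.183). In the row used here it passed in 1 of 17 alternative settings. Without replicate 1 of KO GMP it did pass (-1.69, adjusted p = 0.0166). The same held for Aldoc without replicate 1 of Het GMP (1.82, adjusted p = 0.019, against 1.36 and 0.112 with all arrays) and for Vegfa in the 3 settings given with its values. Over the 36 genes the KO effect had the same sign in both cell types in 24 (66.7%), against 59.8% of all rows. Across these genes, which are not independent replicates and share the 8 arrays, the effects in the 2 cell types correlated at 0.671, at 0.461 without Ak4, and at 0.515 over all rows.

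**Figure D3:**
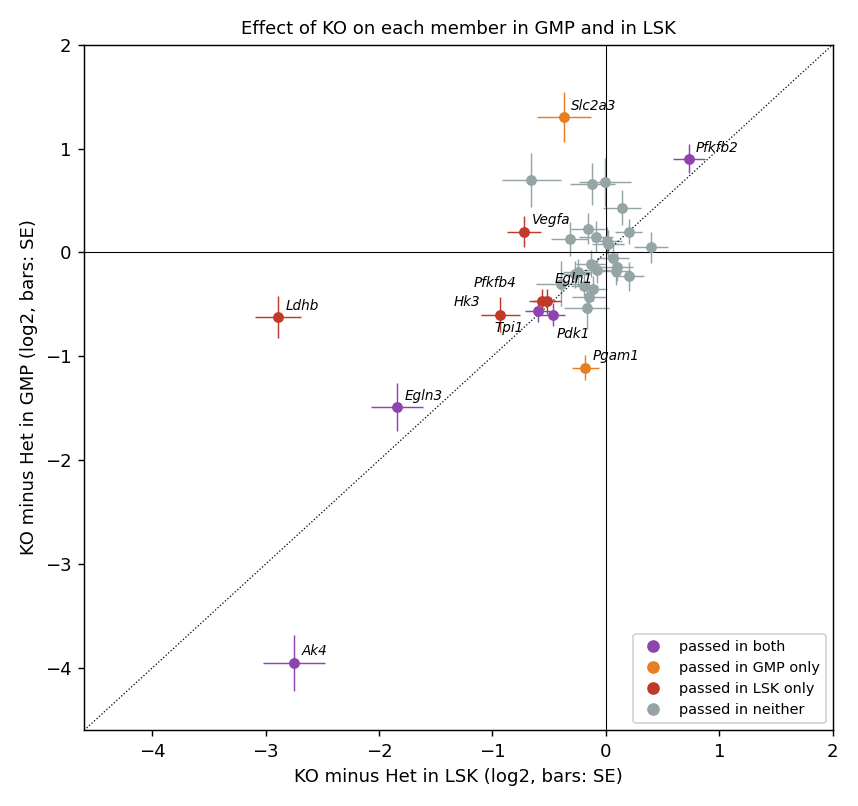
KO minus Het in LSK (x axis, log2) against KO minus Het in GMP (y axis, log2) for the 36 genes, with SE bars, a dotted line of equal effects, and colours for where the difference passed. Ak4 (-3.95 in GMP, -2.75 in LSK) and Egln3 (-1.49, -1.84) lie toward the lower left, while Ldhb (-0.62, -2.89), Pgam1 (-1.11, -0.18) and Slc2a3 (1.30, -0.37) lie away from the dotted line.

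Promoter sequences of 7 genes are shown because they carry these results, being those called in both cell types and those whose KO effect differed between cell types, as far as a window was listed (there was none for Slc2a3). Each runs 5′ to 3′ on the gene's strand, from 250 bases before to 50 bases after the start of the first-listed transcript, from RefSeq on GRCm38.p6. Capitals mark matches to the core of the hypoxia response element, ACGTG or GCGTG, or to the core bound by RUNX factors, TGTGGT or TGCGGT, on either strand.
Ak4, chr4:101419039-101419338, plus strand: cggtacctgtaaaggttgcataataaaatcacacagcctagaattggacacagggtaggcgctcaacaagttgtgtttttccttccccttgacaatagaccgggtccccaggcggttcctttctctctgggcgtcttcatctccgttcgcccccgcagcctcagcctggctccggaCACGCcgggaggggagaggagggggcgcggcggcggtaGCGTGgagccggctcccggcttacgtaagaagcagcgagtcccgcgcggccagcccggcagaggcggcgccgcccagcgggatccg
Egln3, chr12:54203825-54204124, minus strand: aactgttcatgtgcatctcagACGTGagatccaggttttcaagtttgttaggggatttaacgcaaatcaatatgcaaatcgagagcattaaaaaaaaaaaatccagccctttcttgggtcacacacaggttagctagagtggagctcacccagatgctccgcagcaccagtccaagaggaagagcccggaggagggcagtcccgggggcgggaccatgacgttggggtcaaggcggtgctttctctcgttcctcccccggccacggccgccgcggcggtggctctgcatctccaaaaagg
Pdk1, chr2:71872974-71873273, plus strand: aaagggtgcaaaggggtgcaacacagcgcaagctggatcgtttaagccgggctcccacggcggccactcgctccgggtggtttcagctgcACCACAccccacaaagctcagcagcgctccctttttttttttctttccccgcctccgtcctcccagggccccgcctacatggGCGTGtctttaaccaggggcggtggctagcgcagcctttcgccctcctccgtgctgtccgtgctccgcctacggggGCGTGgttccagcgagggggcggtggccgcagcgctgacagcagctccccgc
Tpi1, chr6:124814109-124814408, minus strand: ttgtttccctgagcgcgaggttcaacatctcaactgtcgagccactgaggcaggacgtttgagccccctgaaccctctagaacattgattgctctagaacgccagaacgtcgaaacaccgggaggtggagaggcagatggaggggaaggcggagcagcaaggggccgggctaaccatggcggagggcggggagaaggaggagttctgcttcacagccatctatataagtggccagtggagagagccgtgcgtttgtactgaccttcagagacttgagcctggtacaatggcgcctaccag
Pfkfb2, chr1:130715772-130716071, minus strand: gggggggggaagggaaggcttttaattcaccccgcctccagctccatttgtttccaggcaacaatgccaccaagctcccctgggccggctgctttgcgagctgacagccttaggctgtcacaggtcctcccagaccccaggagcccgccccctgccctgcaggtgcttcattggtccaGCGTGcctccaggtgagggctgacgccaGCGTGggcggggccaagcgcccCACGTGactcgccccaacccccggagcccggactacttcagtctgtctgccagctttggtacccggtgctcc
Pgam1, chr19:41911621-41911920, plus strand: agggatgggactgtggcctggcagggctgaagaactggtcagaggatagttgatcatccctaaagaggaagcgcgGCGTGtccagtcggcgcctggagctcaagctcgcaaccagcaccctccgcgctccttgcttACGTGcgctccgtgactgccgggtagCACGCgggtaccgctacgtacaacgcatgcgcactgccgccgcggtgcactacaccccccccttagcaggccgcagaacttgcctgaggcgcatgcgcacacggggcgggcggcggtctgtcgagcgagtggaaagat
Ldhb, chr6:142507908-142508207, minus strand: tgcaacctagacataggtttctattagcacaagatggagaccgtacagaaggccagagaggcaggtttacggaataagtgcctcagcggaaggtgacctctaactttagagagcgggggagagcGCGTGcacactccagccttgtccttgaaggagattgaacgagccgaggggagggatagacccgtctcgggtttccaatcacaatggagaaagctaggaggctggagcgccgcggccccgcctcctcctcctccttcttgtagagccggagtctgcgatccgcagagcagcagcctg
In the Ak4 window the hypoxia cores begin 74 and 36 bases before the start site, and in Egln3 the single one lies 229 bases before it. Pgam1 holds 3, Pdk1 holds 2 and a RUNX core 160 bases before its start, and Ldhb holds 1. In Pfkfb2, the 1 gene of these that rose, there are 4 matches, and 2 of them overlap on opposite strands as CACGTG. Tpi1 has no match in its window.

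The hypoxia core was common in these promoters, whether or not the gene passed between KO and Het. Of the 33 measured genes with a window, 27 (81.8%) held a hypoxia core, against 8103 of 15614 genes with a tested row (51.9%). Among the 10 genes that fell in KO in at least 1 cell type 8 held it, and among the 22 with a window that passed in neither 18 held it. The cores contain CG, and the median window of the listed genes had 24 CG steps, against 15 over genes with a tested row. A RUNX core was in 7 of the 33 windows (21.2%), against 21.3% of genes with a tested row, and in 2 of the 10 that fell. A match is only a run of letters, and binding was not measured.

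More of these genes differed between GMP and LSK in Het than between KO and Het in either cell type, while in KO the number was between the counts of the 2 genotype comparisons. In KO, 9 of the 36 were higher and 0 lower in GMP than in LSK (25%), where 6.05% of all rows passed, 3.66% higher and 2.39% lower. At an unadjusted p under 0.05 limma gave 14 higher and 5 lower. Of all 21789 rows, 4352 had an unadjusted p up to 0.0538 in either direction. In Het, 13 were higher and 7 lower (55.6%), where 17.5% of all rows passed, 7.9% higher and 9.6% lower. With each array's median subtracted, the split in Het was 16 higher and 5 lower. The GMP arrays did not overlap the LSK arrays for 25 genes in KO, 16 of them higher in GMP and 9 lower, where 47.5% of all rows did not overlap, 21.5% higher and 26% lower. In Het they did not overlap for 32 genes, 19 higher and 13 lower, where the share over all rows was 57.9%, with 29.7% higher and 28.2% lower. The median size of the step was 0.33 in KO and 0.55 in Het, against 0.16 and 0.19 over all rows.

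Hk3, Hk2, Pfkp, Tpi1, Pfkfb3, Pfkfb4 and Vegfa were higher in GMP in both genotypes. Hk3 was higher in GMP by 2.41 ± 0.17 in KO (adjusted p = 7.58e-05) and by 2.08 ± 0.17 in Het (adjusted p = 6.57e-05). Vegfa was higher in GMP by 2.15 ± 0.15 in KO (adjusted p = 8.25e-05) and by 1.23 ± 0.15 in Het (adjusted p = 0.000656). Pfkp differed by 0.88 in KO and 1.12 in Het, Pfkfb3 by 0.90 and 0.88, Pfkfb4 by 0.85 and 0.76, Hk2 by 0.63 and 0.91, and Tpi1 by 0.50 and 0.46. In KO, the Tpi1 call was lost when any 1 of the 8 arrays was left out. That of Hk2 was lost without any array but replicate 1 of KO LSK. Without replicate 1 of KO GMP the step in KO was 0.45 for Tpi1 and 0.54 for Hk2.

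Another 2 genes passed between GMP and LSK in KO and not in Het, and 13 passed in Het and not in KO. For Pgam1, GMP minus LSK was 0.42 in KO (adjusted p = 0.0901) and 1.35 ± 0.12 in Het (adjusted p = 0.000115). For Ak4 it was 0.08 in KO (adjusted p = 0.914) and 1.29 in Het (adjusted p = 0.0102). For Slc2a3 it was -0.17 in KO (adjusted p = 0.778) and -1.83 ± 0.24 in Het (adjusted p = 0.000877). Other rows of 2 of these genes gave other calls. A further row of Pgam1 passed in KO too (0.62, adjusted p = 0.0317), and the second row of Ak4 did not pass in Het (0.66, adjusted p = 0.241). Ldhb was higher in GMP by 2.24 ± 0.20 in KO (adjusted p = 0.000328), with -0.03 in Het, and Egln3 by 0.95 in KO (adjusted p = 0.0462), with 0.60 in Het. The interaction tests already given are also the tests of whether the step differs between genotypes. In the main fit, the one without any alternative setting, they passed for Pgam1, Slc2a3 and Ldhb and for no other gene of the 36. With only rows above the median level tested, Vegfa passed too (adjusted p = 0.0483). With all rows tested, Pgam1 and Slc2a3 did not pass (0.0963 and 0.177).

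The remaining genes with a step in Het were spread over the pathway. GMP minus LSK was 0.44 in KO and 0.87 in Het for Aldoa, 0.58 in KO and 0.95 in Het for Slc16a3, 0.89 in KO and 0.79 in Het for Slc16a1, and 0.37 in KO and 0.50 in Het for Pkm. It was below 0 for Aldoc, the aldolase best known from brain (-0.76 in KO, -2.12 in Het), Ddit4 (-0.30 in KO, -1.09 in Het), Pdk2 (-0.34 in KO, -1.03 in Het), Pfkm (-0.48 in KO, -0.87 in Het), Ankrd37 (-0.36 in KO, -0.60 in Het) and Pfkfb2 (-0.31 in KO, -0.48 in Het). In the main fit none of these 10 passed in KO and none had an interaction that passed. With an intensity trend in the prior variance, Aldoa (adjusted p = 0.0272), Pkm (0.0223) and Slc16a1 (0.0326) passed in KO. Pkm (0.0428) and Slc16a1 (0.032) did with only rows above the median level tested, and Slc16a1 with the mean of a gene's rows (0.0491). A second row of Pkm passed in KO as well (0.56, adjusted p = 0.0327). Aldoc passed in KO without replicate 1 or 2 of Het GMP (adjusted p = 0.0291 in each case), and Slc16a1 did with the random block (0.0292). Within gene families the direction therefore varied, with Pfkp and Aldoa higher in Het GMP than in Het LSK and Pfkm and Aldoc lower.

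Some of the steps hung on single arrays. In Het, Pfkfb2, Ankrd37, Pdk2, Pkm, Tpi1, Ak4, Ddit4, Slc16a1 and Slc16a3 lost their call without at least 1 array, and their number of calls fell most without replicate 1 of Het GMP, to 12 of 36, and without replicate 2 of Het LSK, to 13. Without replicate 1 of Het GMP the adjusted p was 0.269 for Pfkfb2, 0.112 for Ankrd37, 0.128 for Pdk2, 0.0737 for Pkm, 0.145 for Tpi1, 0.0791 for Ak4, 0.249 for Slc16a1 and 0.0797 for Slc16a3, and Ddit4 was lost without replicate 2 of Het LSK (0.0503). With all rows tested, Slc16a1, Pdk2, Pfkfb2 and Ankrd37 did not pass in Het (0.0603 to 0.112), and with quantile normalization repeated the steps of Tpi1 and Pkm in Het were 0.22 and 0.25 and did not pass (0.249 and 0.218). In KO, Hk2, Tpi1 and Egln3 did not pass with all rows tested (0.0789 to 0.149), and Egln3 lost its call without any array but replicate 1 of KO LSK (0.0723 to 0.233). Markers moved with this step too. Of 10 monocyte and macrophage markers, 2 were higher in KO GMP than in KO LSK and 9 were higher in Het GMP than in Het LSK. Of 7 megakaryocyte and platelet markers, 3 were higher in KO GMP than in KO LSK, and 5 were lower in Het GMP than in Het LSK. Of 7 B cell markers, 0 passed in KO by limma and 5 were lower in Het GMP than in Het LSK. The part of these markers' cells in the steps was not tested.

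**Figure D4:**
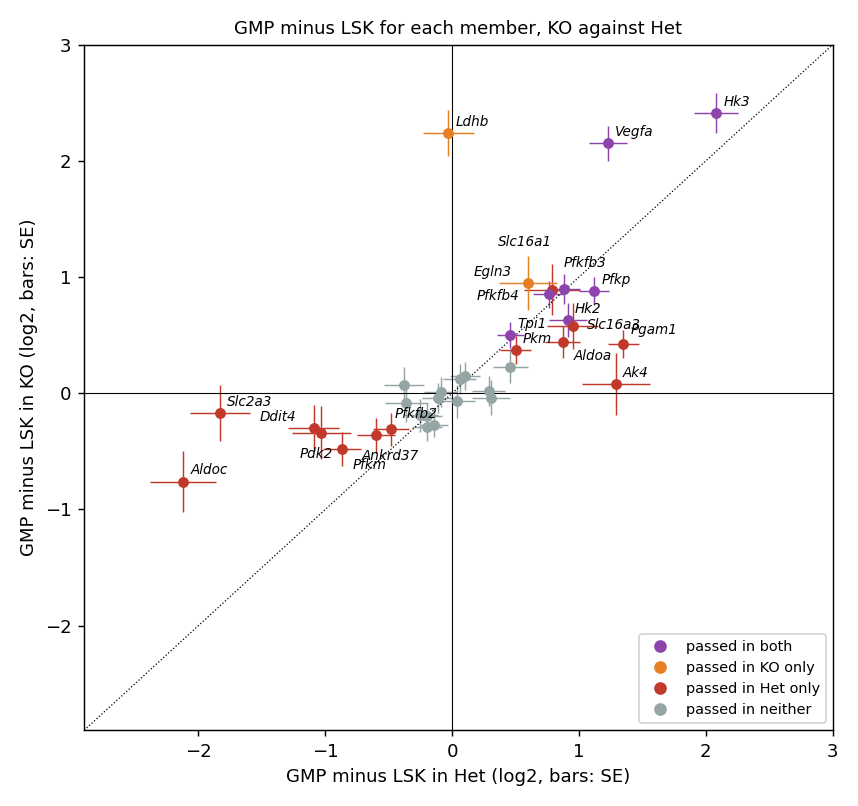
GMP minus LSK in Het (x axis, log2) against GMP minus LSK in KO (y axis, log2) for the 36 genes, with SE bars, a dotted line of equal steps, and colours for where the step passed. Hk3 (2.41 in KO, 2.08 in Het) and Vegfa (2.15, 1.23) lie at the upper right, Ldhb (2.24, -0.03) stands on the vertical axis, and Aldoc (-0.76, -2.12) and Slc2a3 (-0.17, -1.83) lie at the left.

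The 12 genes that passed in none of the 5 comparisons were Hk1, Pfkl, Pgk1, Eno2, Ldha, Slc2a1, Pdk3, Pdk4, Bnip3, Bnip3l, Hif1a and Epas1. The list thus holds major glycolytic enzymes as well as both HIF-α transcripts. A p that missed the threshold does not show that levels were equal, and the SEs of their differences between groups were 0.12 to 0.17. Pgk1 came nearest, 0.46 higher in GMP than in LSK in Het (adjusted p = 0.0514). With array medians subtracted, Pgk1 (0.62, adjusted p = 0.0192) and Ldha (0.45, adjusted p = 0.0441) passed there. Pgk1 also passed in some other settings, among them an intensity trend in the prior variance (0.0134). Hk1 passed between KO and Het in its second row, and in the mean of its rows (adjusted p = 0.022 in GMP, 0.047 in LSK).

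Genes around the pathway, taken from lists set by function, were called between KO and Het in varying shares, where 6.02% of all rows passed in GMP and 7.73% in LSK. Of 25 other enzymes of glycolysis and gluconeogenesis, 2 fell in KO GMP and 2 in KO LSK (8% each). In GMP these were Tigar, which lowers fructose 2,6-bisphosphate (-0.86, adjusted p = 0.0243), and G6pc3, a glucose 6-phosphatase that neutrophils need (-0.59, adjusted p = 0.0166). In LSK they were Fbp1, fructose 1,6-bisphosphatase (-1.56, adjusted p = 0.00574), and Ldhd, a D-lactate dehydrogenase (-0.58, adjusted p = 0.0255).

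The pentose phosphate pathway, which branches off at glucose 6-phosphate to make NADPH and ribose, had 13 measured genes. In KO GMP 3 fell (23.1%), Pgd by 0.96 (adjusted p = 0.0118), G6pd2 by 0.69 (adjusted p = 0.0257) and Taldo1 by 0.53 (adjusted p = 0.0389), and in KO LSK 1 fell (7.69%), H6pd by 0.62 (adjusted p = 0.0238). In each genotype 8 of the 13 were higher in GMP than in LSK (61.5%), where 3.66% of all rows were in KO and 7.9% in Het. The median step over the list was 0.63 in KO and 0.86 in Het, against -0.02 and 0.01 over all rows. Of 12 genes for pyruvate entry into mitochondria, Mpc1, a subunit of the pyruvate carrier, fell by 0.72 (adjusted p = 0.0356) and Dlat, a subunit of pyruvate dehydrogenase, by 0.49 (adjusted p = 0.0408) in KO GMP, 16.7% of the list. In LSK limma called 0 of these 12, with 3 at an unadjusted p under 0.05, where 4564 of all 21789 rows had one up to 0.058.

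Of 19 other sugar and monocarboxylate transporter genes, 2 fell and 1 rose in each cell type (15.8%). Emb, which encodes embigin, a partner that carries monocarboxylate transporters to the membrane, had mean levels of 8.13 in KO GMP against 9.98 in Het GMP, and 5.40 in KO LSK against 9.57 in Het LSK. Its difference was -1.84 ± 0.19 in GMP (adjusted p = 0.000645) and -4.17 ± 0.19 in LSK (adjusted p = 2.13e-05). In GMP Slc2a6, a glucose transporter family member, also fell (-0.84, adjusted p = 0.0122) and Slc37a1, a sugar phosphate exchanger, rose (0.69, adjusted p = 0.0486). In LSK Slc16a7, a monocarboxylate transporter, fell (-0.84, adjusted p = 0.00162) and Slc16a10, an aromatic amino acid transporter, rose (1.63, adjusted p = 0.000193).

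Of 25 further regulators of the HIF pathway, 1 rose in KO GMP (4%), 2 rose in KO LSK (8%) and 0 fell by limma, with 5 in GMP and 3 in LSK at an unadjusted p under 0.05 in either direction. Hif3a, of which some isoforms restrain HIF, averaged 5.47 in KO GMP and 4.07 in Het GMP, and 6.08 in KO LSK and 4.67 in Het LSK, a difference of 1.40 (adjusted p = 0.0246) and 1.41 (adjusted p = 0.0202). Cited2, which competes with HIF-α for its coactivators and is itself HIF-induced, averaged 9.98 in KO LSK and 8.94 in Het LSK (1.03, adjusted p = 0.00869). Of 45 other described HIF targets, 1 rose and 1 fell in KO GMP (Stc2 by 0.62 and Cxcr4 by -0.64) and 2 rose in KO LSK (Cited2, and Bhlhe40 by 0.60), 4.44% in each cell type. At an unadjusted p under 0.05 these were 12 of 45 in GMP and 14 of 45 in LSK. As background for both lists, 3014 of all 21789 rows in GMP had an unadjusted p up to 0.0304 and 5637 up to 0.115. In LSK 3442 rows had one up to 0.0305 and 4564 up to 0.058. The count of all rows under 0.05 lies between these in each cell type, so the counts of the lists are not read as a result. None of 6 other adenylate kinase genes passed in GMP or LSK, and none had an unadjusted p under 0.05.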

How the data were processed

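Amplified RNA of sorted cells was hybridised to 8 Affymetrix Mouse Gene ST arrays. The authors deposited 1 log2 value per row and array, made with RMA per the submitters' processing notes. RMA corrects background, gives the probes of all arrays 1 common distribution and then combines the probes of a row, so a difference is relative to the bulk of genes. The combined row values can still differ in distribution between arrays, and the array medians of rows with 1 symbol lay between 4.92 and 5.09. The software version and genome build are not stated in these sources. Of 35556 rows, 21789 carried exactly 1 gene symbol in the platform annotation, 1621 carried several and 12146 none. The 36 genes and the other gene lists were chosen with earlier results of these data known. For each gene the row with the highest mean was used.

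The deposited values were fitted with limma 3.58.1 in R 4.3.3, with 1 mean per group over all 8 arrays, which left 4 residual degrees of freedom and 4.83 from the prior. Differences are given as KO minus Het, as GMP minus LSK, or as the KO effect in GMP minus that in LSK. Tests were two-sided, adjusted by Benjamini-Hochberg over the 21789 rows, and called at an adjusted p under 0.05. Errors are standard errors of the fit. The number of arrays limits the precision. The fit was tested on simulated data in which changes of known size were placed in KO GMP only. That test covered KO minus Het in GMP, and KO minus Het in LSK with no change placed. It did not cover the interaction or the GMP minus LSK differences. No 2 arrays held identical values. The labels do not tie an array number to a mouse across cell types, so replicate number was used as a block in an alternative only, and p-values treat LSK and GMP of 1 mouse as independent.

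Genes were named by a rule. Values on every array are given for genes that passed between KO and Het or in the interaction, and for Hif1a and Epas1. Other genes that passed between GMP and LSK are given by differences. From the other lists, up to 4 called genes with the largest difference are named. Promoter windows and their letters come from RefSeq, and 33 of the 36 genes matched one. Alternatives were another scaling, other sets of rows, other variance priors, fits on only the 2 groups compared, the mean of a gene's rows, replicate blocks, a 2-fold minimum and each array left out.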

Additional observations from a re-analysis of the deposited data

Results flagged for a closer look

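The effect of losing Cbfb differed between GMP and LSK for 3 genes by the interaction test in limma. For Ldhb, KO minus Het was -0.62 in GMP and -2.89 in LSK, and the difference of these effects was 2.27 (SE 0.29, adjusted p = 0.00583). For Slc2a3 the effects were 1.30 in GMP and -0.37 in LSK, with a difference of 1.67 (SE 0.34, adjusted p = 0.0427). For Pgam1 they were -1.11 in GMP and -0.18 in LSK, with a difference of -0.93 (SE 0.17, adjusted p = 0.0284). Each group has 2 arrays, and the cause was not tested.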

How the results depend on the processing

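No gene turned direction where it was called, under any of the 19 alternatives. The number of the 36 genes called in LSK between KO and Het (10) fell to 5 with all rows of the table tested, to 4 with a fit on only the 2 groups compared and to 3 with a 2-fold minimum. With 1 array left out it lay between 4 and 9. In GMP the 7 became 4 with a 2-fold minimum and 2 to 8 with 1 array left out. The 3 interactions became 1 with quantile normalization repeated, 1 with all rows tested, and 1 to 3 with 1 array left out. Between GMP and LSK, the 9 in KO and 20 in Het became 3 and 9 with a 2-fold minimum, and 6 to 9 and 12 to 23 with 1 array left out. The cause was not tested.

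Subtracting each array's median moved the median of all rows by -0.05 (KO minus Het in GMP), 0.09 (KO minus Het in LSK), 0.02 (GMP minus LSK in KO) and 0.16 (GMP minus LSK in Het). The calls in Het then split into 16 higher and 5 lower in GMP, against 13 and 7, and those in GMP into 2 higher and 8 lower in KO, against 2 and 5.

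With replicate number as a block the calls were 7 in GMP, 9 in LSK, 3 for the interaction, 8 for the step in KO and 18 in Het. Pdk1 in LSK (adjusted p = 0.0532), Hk2 in the KO step (0.0501), and Slc16a1 and Pfkfb2 in the Het step (0.0558 and 0.0658) lost their calls. Same-numbered deviations correlated at 0.179 between KO GMP and KO LSK and 0.133 between Het GMP and Het LSK, which came from the same animals, and at -0.143 to -0.0255 between genotypes. The labels do not tie the numbers to animals, so these are a hint from the data only. With the mouse as a random block within genotype, taken by replicate number, the calls were 7, 10, 4, 10 and 21 (consensus correlation 0.139), with Vegfa the added interaction (adjusted p = 0.0466).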

Other observations

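Gapdh, the glycolytic enzyme between Tpi1 and Pgk1, appeared in 25 rows, each shared with other symbols, at levels of 11.31 to 12.78. In a limma fit of all rows, KO minus Het ranged from -0.17 to -0.06 in GMP (median -0.11) and from -0.11 to 0 in LSK (median -0.03), with 0 rows called and 0 at an unadjusted p under 0.05. GMP minus LSK ranged from 0.07 to 0.22 in KO and from 0.13 to 0.28 in Het, with 0 called and, at an unadjusted p under 0.05, 0 in KO and 3 in Het. These rows cannot be told apart from the Gapdh-like sequences that share them.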
